A study of Caenorhabditis elegans with 24 samples.

Results

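The wild-type baseline of the study was described as the genes with 20 or more reads in both RNA-seq libraries of the strain N2, a rule that used no mutant library. Of 46508 genes in the count table, 12346 met it, and these held 99.72% of the reads in N2 library 1 and 99.78% in N2 library 2. Total RNA was taken from whole worms at the L4 stage, grown on NGM plates, and ribosomal RNA was removed before sequencing. The study compared N2 with worms carrying *set-9(rw5)*, *set-26(tm2467)* or both alleles, with 2 libraries for each of 4 genotypes, 8 in all. The study's methods describe double mutants of the F1 generation, from balanced heterozygous parents, and of the F3 generation. The labels do not say which of these the libraries hold. The study's supplement gives RNA-seq changes of some genes in F3 double mutants, without F1 values beside them. For *his-1* and *catp-3* these lie close to the changes in the libraries used here. Whether F1 worms would differ in these genes was not tested. No treatment was applied to any group, and the sex of the worms is not given in the sources used here.

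L4 is the last larval stage of *C. elegans*. The hermaphrodite gonad makes its sperm at this stage before it turns to oocytes, the vulva is formed, and the epidermis secretes the cuticle that the adult will wear. The intestine, a tube of large polyploid cells, digests bacteria and will export yolk proteins, called vitellogenins, to the oocytes of the adult. Because ribosomal RNA was removed instead of poly(A) RNA being selected, RNAs without a poly(A) tail could also enter the libraries.

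The N2 libraries had 26187811 and 18838700 estimated reads on genes, against a range of 16363189 to 26187811 over the 8 libraries. The 20-read limit therefore stood at 0.764 CPM (reads scaled to a total of 1000000 on genes) in library 1 and at 1.06 CPM in library 2, and the 3-read floor at 0.115 and 0.159 CPM. Another 7915 genes had some reads in N2 but were below the limit in at least one library, and 26247 genes were at 0 in both. CPM of members in the 2 libraries had a Pearson's r of 0.979 on the log2 scale and a Spearman's rho of 0.977, both across genes, which are not independent replicates. As a check of the labels for the *set-9* allele only, which cannot tell *set-9* from double mutant libraries, the *set-9* gene was at 87.6 and 85.5 CPM in N2. It was at 43.9 and 37.4 CPM in *set-9(rw5)*, 120 and 110 in *set-26(tm2467)*, and 32.9 and 35.2 in the double mutant, with the reservation that it shares reads with a near-identical paralog.

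Stage and sex markers were read in the N2 libraries first. Of 17 genes that are switched on in the early embryo, 0 were members, 9 were at 0 in both libraries, and the highest, *ceh-51*, had 11 and 13 reads. Of 12 genes of the male soma, 3 were members. The highest of these, *mab-3*, a transcription factor that also acts in the intestine, had 690 and 553 reads. *dmd-3*, a regulator of male tail shape, had 64.5 and 26 reads, and *cwp-4*, a gene of male sensory neurons, had 45 and 52. Regulators of developmental timing were members in 22 of 23 cases. *myrf-1*, a membrane-bound transcription factor needed for molting, had 12490 and 9202 reads, and *lin-42*, the worm homolog of Period, had 10402 and 9779, and a separate landmark entry named for it, not counted here, had 8701 and 7807. *lin-29*, which drives the switch of the epidermis to its adult fate, had 3351 and 2445 reads. The early larval regulator *lin-28*, an RNA-binding protein, was far lower with 159 and 115 reads. *lin-46*, with 12 and 27 reads, was the only listed timing gene below the limit. Of the inducible small heat shock genes, *hsp-16.1* and *hsp-16.48* were at 0 in both libraries and *hsp-16.2* had 16 and 13 reads.

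Reads were concentrated in few genes. The most abundant gene held 1.09% of reads on genes as the mean of the N2 libraries, the 10 most abundant held 6.95%, the 100 most abundant 29.6% and the 1000 most abundant 70.5%. It took 310 genes to reach 50% of the reads in N2 library 1 and 300 in library 2. In the mutants the same point was reached with 363 and 355 genes in the double mutant, whose libraries were the least concentrated of the 8. The *set-26* libraries needed 323 and 293 genes, those of *set-9* 292 and 271. The median member was at 14.7 CPM, with 5% of members below 1.6 CPM and 5% above 278 CPM.

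**Figure D1:**
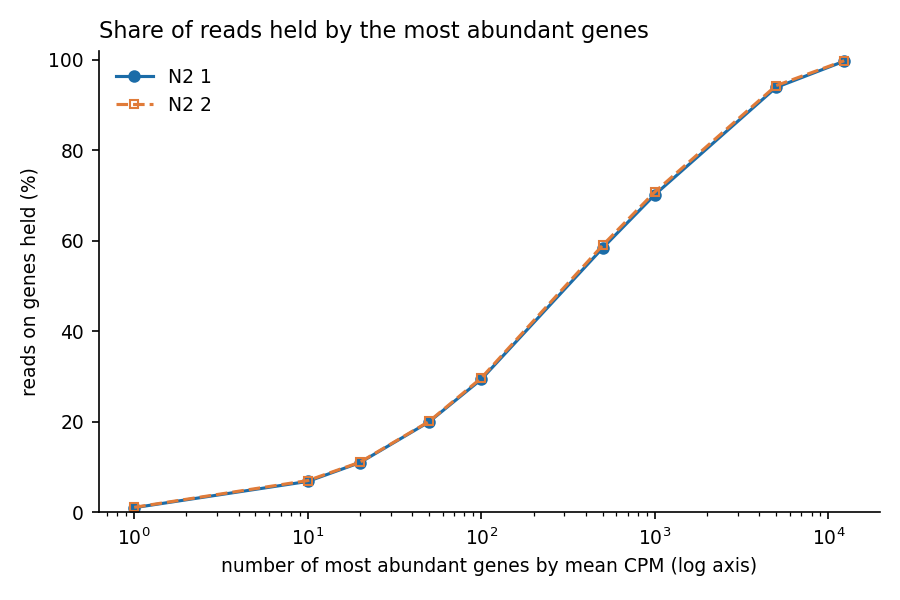
Share of reads on genes (y axis, percent) held by the most abundant genes, ranked by mean CPM (x axis, number of genes, log axis), in N2 library 1 (filled circles) and N2 library 2 (open squares). The curves of both libraries lie on each other and pass 29.4% and 29.7% at 100 genes.

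The most abundant genes were those of muscle, digestion, the cuticle and protein synthesis. *unc-54*, the major myosin heavy chain of the body wall muscle, was at 10530 CPM in library 1 and 11288 CPM in library 2. *act-4*, a muscle actin (chrX:4960621-4964413 of WBcel235, plus strand), was at 10540 and 10507 CPM, so the libraries put these genes in opposite order. *asp-1*, an intestinal aspartyl protease (chrV:19049562-19050752, minus strand), followed with 8722 and 8030 CPM. *mlt-11*, a secreted protease inhibitor required for molting (chrV:20667205-20678537, plus strand), was at 6720 and 8302 CPM. Next by mean were the elongation factor gene *eef-1A.1* with 5997 and 6508 CPM, the ATP synthase subunit gene *atp-1* with 6228 and 6019 CPM, and *ahcy-1*, an enzyme of the methionine cycle, with 5527 and 5806 CPM. Among the remaining 13 of the 20 most abundant genes, 5 encode ribosomal proteins (*rpl-36*, *rla-0*, *rps-8*, *rla-1* and *rpl-17*). The others are the chaperone gene *hsp-1*, the nucleoside diphosphate kinase gene *ndk-1*, the muscle genes *unc-15* (paramyosin) and *lev-11* (tropomyosin), the cuticle collagen gene *dpy-4*, the protein disulfide isomerase gene *pdi-2*, the yolk protein gene *vit-6*, and *far-2*, which encodes a secreted lipid-binding protein. Within this group the widest gap between the libraries was that of *vit-6*, at 5661 and 2312 CPM.

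Long genes take more reads at the same number of transcripts, so levels were compared between genes only after division by the length of the merged exons (CPM per kilobase, CPM/kb). On this scale *unc-54*, with 1697 and 1819 CPM/kb, was outside the 100 highest genes and *mlt-11*, with 686 and 847 CPM/kb, was at rank 221. The highest gene was *rpl-36*, a protein of the large ribosomal subunit, at 14031 and 13204 CPM/kb. *rla-1*, an acidic protein of the ribosomal stalk, had 9239 and 9942 CPM/kb, and *rps-21*, of the small subunit, had 8169 and 8592 CPM/kb. *ndk-1*, *asp-1*, *act-4*, *rps-28*, *W01D2.1*, which has no gene name, and *far-2* completed the 10 highest with levels from 6113 to 7323 CPM/kb. Neighbours in this group often exchanged places between the libraries, so their order is not firm. The median member was at 10.3 CPM/kb.

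The gene at rank 2 per kilobase encodes no protein: *srpr-2.2*, a copy of the RNA of the signal recognition particle, which guides secretory proteins to the endoplasmic reticulum. It had 69105 and 80989 reads, or 8826 and 14378 CPM/kb, higher in library 2. The copy *srpr-2.1* had 19748 and 34030 reads, and *srpr-1.2* had 1039 and 2474 reads. A further copy, *srpr-1.1*, was at 3.64 and 6.32 CPM, and *srpr-3*, with 1.86 and 4.9 reads, was not a member. All 4 member copies were thus higher in library 2. The sequences of the 3 most abundant copies are shown because they are nearly the same, so that the split of reads among them is uncertain. *srpr-2.2* lies at chrIII:5031410-5031708 on the minus strand, *srpr-2.1* at chrIII:5211220-5211518 on the plus strand and *srpr-1.2* at chrIII:4369468-4369766 on the plus strand of WBcel235 (RefSeq), each 299 bases long. Capitals mark the bases at which a copy differs from *srpr-2.2* in a global alignment. *srpr-2.1* differed at 3 alignment columns (99% identity) and *srpr-1.2* at 18 (94% identity).
srpr-2.2: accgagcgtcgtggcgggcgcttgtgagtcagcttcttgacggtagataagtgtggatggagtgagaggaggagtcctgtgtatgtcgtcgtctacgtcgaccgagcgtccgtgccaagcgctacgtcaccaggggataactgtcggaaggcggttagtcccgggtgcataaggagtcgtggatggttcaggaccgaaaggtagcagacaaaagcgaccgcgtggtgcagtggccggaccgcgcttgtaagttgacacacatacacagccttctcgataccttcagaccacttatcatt
srpr-2.1: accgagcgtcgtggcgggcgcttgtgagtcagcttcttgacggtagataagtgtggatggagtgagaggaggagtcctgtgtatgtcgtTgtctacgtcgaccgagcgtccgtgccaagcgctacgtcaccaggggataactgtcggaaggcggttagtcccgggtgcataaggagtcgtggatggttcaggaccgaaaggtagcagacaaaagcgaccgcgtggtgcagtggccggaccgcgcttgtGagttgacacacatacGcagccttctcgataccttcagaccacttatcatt
srpr-1.2: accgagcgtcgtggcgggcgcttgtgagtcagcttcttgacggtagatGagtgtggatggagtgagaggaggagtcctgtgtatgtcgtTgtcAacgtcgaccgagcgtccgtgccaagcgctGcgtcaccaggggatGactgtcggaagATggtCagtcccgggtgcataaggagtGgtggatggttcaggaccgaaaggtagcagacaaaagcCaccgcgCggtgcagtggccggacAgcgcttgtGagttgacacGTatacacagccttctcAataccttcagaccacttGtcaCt

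Other RNAs that encode no protein were a small part of the libraries. Protein-coding genes were 11872 of the members and held 98.9% and 98.6% of the reads, and 85 members annotated as ncRNA held 0.614% and 0.907%. *rpr-1*, the RNA of the tRNA-processing enzyme RNase P, had 3147 and 3858 reads, again higher in library 2. Among long noncoding RNAs, *lep-5*, which acts in the timing of tail tip development, had 7232 and 6731 reads. *tts-2* had 4062 and 3269 reads, while *tts-1*, known to rise in long-lived mutants, had 53 and 103. Whether counting used the strand of the reads is not given in the sources used here, so reads of antisense or overlapping RNAs cannot be told from those of their partners. Members included 207 pseudogenes, 33 lincRNAs, 25 snoRNAs, 17 antisense RNAs, 3 snRNAs and 1 microRNA. None of 15341 piRNA precursors, 632 tRNA genes, 22 rRNA genes or 29 splice leader RNA genes was a member. Reads that matched tRNA and rRNA were removed by the authors before alignment, so the counts of those classes say nothing of their abundance. All piRNA and splice leader rows were at 0 in both N2 libraries. Whether RNAs of these classes could enter the libraries and be counted was not tested, so these values do not show their absence.

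The tissues were compared by lists of genes that mark them, each placed by the median rank percentile of its members among all members with a known length, on the CPM/kb scale, where 100 is the highest. In RNA of whole worms, a low rank of a list can come from few cells of that tissue or from little RNA per cell, and these cannot be told apart. Muscle, intestine and epidermis, together with the yolk protein genes, stood at the top. The body wall muscle list was at percentile 92.6 in library 1 and 93.2 in library 2 (92.9 ± 0.44, SD, n = 2), the intestine list at 91.5 and 91.4 (91.4 ± 0.13, SD, n = 2), and the list of epidermis and cuticle at 90.4 and 92.4 (91.4 ± 1.4, SD, n = 2). The vitellogenin list was at 95.5 and 92.2 (93.9 ± 2.3, SD, n = 2). The vitellogenin range covered that of muscle and the epidermis range covered that of intestine, so neither of these pairs can be ordered, while both muscle values lay above those of intestine and epidermis. Pharynx (80.5 and 70.1) and the list of oocyte and eggshell (73.9 and 68.3) followed and overlapped each other. Vulva (58.4 and 58.8), germ line (58.8 and 56.7), somatic gonad (54.1 and 56.6) and excretory system (51.8 and 53.5) lay in the middle, and of these only vulva and germ line overlapped. Below them came the pan-neuronal list (45.6 and 46.7), glia (37.7 and 39.1), sperm (37.2 and 34.1), coelomocytes (20.7 and 22.4) and, lowest of all, the genes of single neuron classes (12.6 and 10.2).

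**Figure D2:**
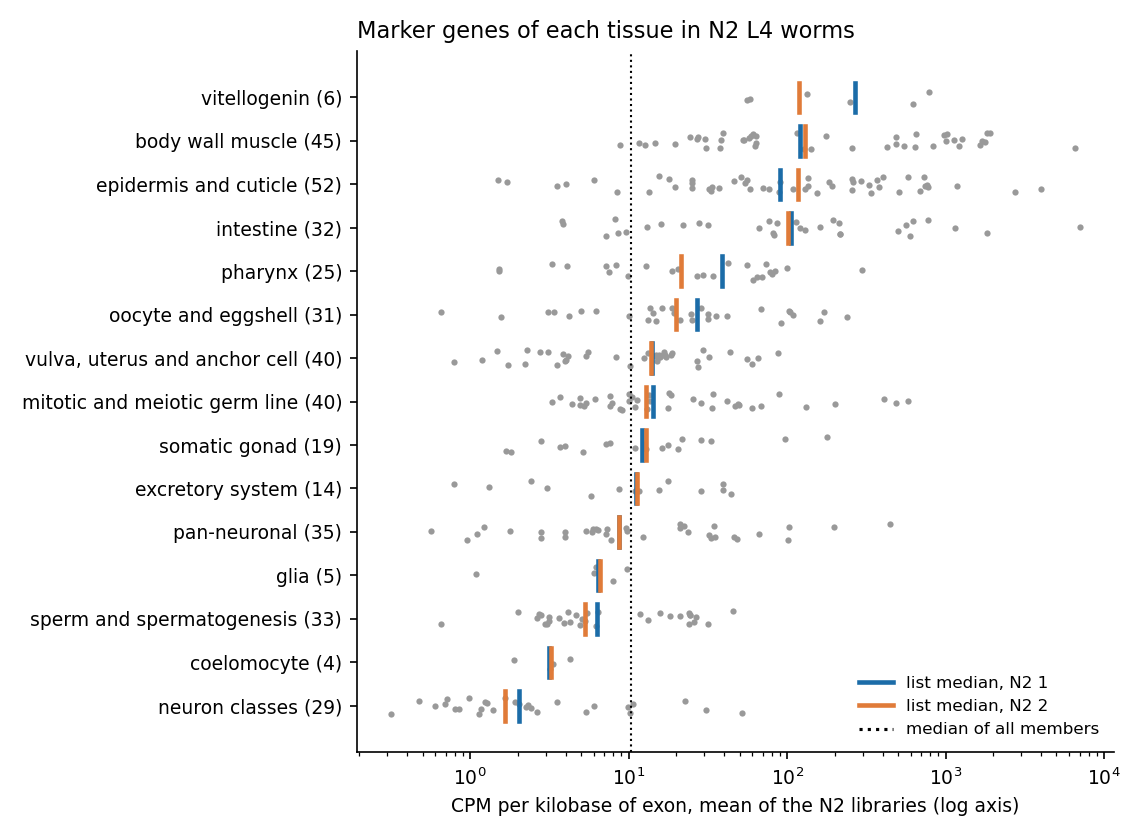
CPM per kilobase of merged exon (x axis, log axis) of the members of each tissue list (grey points, mean of both libraries), with the list median in N2 library 1 and in N2 library 2 and the number of members in parentheses. Muscle, epidermis, intestine and yolk protein lists lie highest, with medians of 90.2 to 266 CPM/kb in library 1, and the list of single neuron classes lies lowest, with 2.02 CPM/kb.

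Body wall muscle genes had the largest share of reads among the tissue lists, 5.79% and 6.01%, with 45 of 46 genes as members. Behind *act-4*, *act-1* had 2055 and 1768 CPM/kb, although the worm actins share much sequence and their split is uncertain. *lev-11*, tropomyosin, had 1721 and 1663 CPM/kb, and *pat-10*, the troponin C of the body wall, had 1632 and 2038. The lowest member was *hlh-1*, the transcription factor that specifies muscle, at 8.91 and 8.79 CPM/kb, which is below the median of all members. The structural proteins and their regulator were thus more than 2 orders of magnitude apart.

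The intestine list had all 32 genes as members and took 1.94% of reads in each library. Behind *asp-1*, the highest were *act-5*, the actin of the microvilli, with 1716 and 1944 CPM/kb, and *acdh-1*, an acyl-CoA dehydrogenase that responds to the bacterial diet, with 1142 and 1158. *elt-2*, the GATA factor that maintains the intestine, was at 22.9 and 21.2 CPM/kb. The lowest member was *ftn-1*, a ferritin, with 51 and 50 reads or 3.21 and 4.38 CPM/kb. ELT-2 binds TGATAA, and the 250 bases before the annotated start of each gene were searched for TGATAA and its reverse complement TTATCA on WBcel235. The motif was found for 22 of the 32 intestine genes (68.8%), for 11 of 45 body wall muscle genes (24.4%) and for 2 of 25 pharynx genes (8%). Among all coding genes the share was 5249 of 19620 (26.8%), and among coding members 3220 of 11860 (27.2%). All 6 vitellogenin genes, which the intestine expresses, had it as well. A match describes letters in a window and is not a binding site by itself. Shown are the windows of *act-5* (chrIII:13606067-13606316, minus strand), *cpr-1* (chrV:11975301-11975550, plus strand), *vha-6* (chrII:11438453-11438702, minus strand) and *asp-1* (chrV:19050753-19051002, minus strand), chosen after the search as examples with 2 matches each and as the most abundant intestine gene, which had none. Capitals mark the matches.
act-5: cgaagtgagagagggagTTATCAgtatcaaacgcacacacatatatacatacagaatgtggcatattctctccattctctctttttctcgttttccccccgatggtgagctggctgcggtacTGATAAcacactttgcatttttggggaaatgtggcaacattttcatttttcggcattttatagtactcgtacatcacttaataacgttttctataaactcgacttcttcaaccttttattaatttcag
cpr-1: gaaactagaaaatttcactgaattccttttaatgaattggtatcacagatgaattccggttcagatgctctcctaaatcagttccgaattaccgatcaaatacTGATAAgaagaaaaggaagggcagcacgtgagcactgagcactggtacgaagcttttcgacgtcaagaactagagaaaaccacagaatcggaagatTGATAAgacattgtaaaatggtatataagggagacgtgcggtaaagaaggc
vha-6: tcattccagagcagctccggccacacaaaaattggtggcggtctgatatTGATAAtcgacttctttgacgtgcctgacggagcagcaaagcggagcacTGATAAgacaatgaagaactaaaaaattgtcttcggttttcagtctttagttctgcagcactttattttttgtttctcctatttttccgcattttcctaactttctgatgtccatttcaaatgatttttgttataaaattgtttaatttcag
asp-1: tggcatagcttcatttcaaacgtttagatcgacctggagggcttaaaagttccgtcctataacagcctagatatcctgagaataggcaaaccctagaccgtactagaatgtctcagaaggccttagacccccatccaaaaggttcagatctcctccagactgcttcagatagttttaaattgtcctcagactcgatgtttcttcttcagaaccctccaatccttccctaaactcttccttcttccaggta

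Vitellogenins, the yolk proteins, were already abundant in the L4 libraries and differed strongly between them. *vit-6* had 148252 reads in library 1 and 43559 in library 2, *vit-2* had 116244 and 31384, and *vit-5* had 45630 and 13114. *vit-1* had 23120 and 8939 reads, *vit-4* had 10609 and 3186, and *vit-3* had 9941 and 3204. All 6 were higher in library 1, and their summed share of reads was 1.35% there against 0.549% in library 2. *vit-3*, *vit-4* and *vit-5* are close copies of each other, as are *vit-1* and *vit-2*, so their split is less certain than their sum.

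Genes of epidermis and cuticle, 52 of 53 as members, held 2.86% and 3.67% of reads. The collagens *dpy-4*, with 3338 and 4692 CPM/kb, *dpy-13*, with 2263 and 3193, and *sqt-3*, with 860 and 1508, led the list. All 3 were higher in library 2, as were all but 8 members of the list. *col-19*, a collagen of the adult cuticle named here after its values were seen, went the other way with 25595 reads in library 1 and 5637 in library 2. *dpy-17*, a collagen too, was the lowest member with 48 and 28 reads. The collagens on this list thus spanned from the top of the table to near its limit.

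The pharynx list had 25 of 29 genes as members. *phat-4*, a toxin-related protein of the pharyngeal glands, had 340 and 254 CPM/kb, and *abu-8*, which encodes a repeat protein of the pharyngeal cuticle, had 142 and 56.7. *tnt-4*, the troponin T of the pharynx, had 90.6 and 76 CPM/kb. *ceh-22*, a homeobox regulator of pharyngeal muscle, was lowest at 1.39 and 1.64 CPM/kb. The lower percentile of the list in library 2 went with 5 *abu* genes, which were 1.25 to 1.41 higher in library 1 on the log2 scale, whereas the pharyngeal myosin *myo-2* had 10525 and 7879 reads, or 402 and 418 CPM.

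In the germ line list all 40 genes were members and took 0.686% and 0.575% of reads. Its leaders were genes for components of RNA granules. *car-1* had 673 and 477 CPM/kb, the RNA helicase gene *cgh-1* had 543 and 423, and *atx-2*, the ataxin-2 homolog, had 419 and 398. *glp-1*, the Notch receptor that keeps germ cells in mitosis, was at 14.4 and 12.9 CPM/kb, and *zim-2*, a zinc finger protein that pairs chromosomes in meiosis, was lowest at 3.28 and 3.25. None of these 40 genes lies on the X chromosome, against 14% of all members.

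All 31 genes of oocyte and eggshell were members. The eggshell genes *perm-4*, with 353 and 125 CPM/kb, *perm-2*, with 257 and 82.9, and *cpg-1*, with 213 and 108, led and were each higher in library 1. *meg-2*, a gene of the germ granules of the embryo, was lowest with 54.7 and 32 reads. Of the sperm list, 33 of 41 genes were members. *sss-1*, with 65.7 and 24.9 CPM/kb, and *ssq-1*, with 38.9 and 13.9, were also higher in library 1, while *cpb-1*, an RNA-binding protein of early spermatogenesis, was at 30.5 and 32.5. *spe-42*, a sperm membrane protein needed at fertilization, was lowest with 27.4 and 43.1 reads. Major sperm proteins, which form the cytoskeleton of the crawling sperm, were members in 28 of 31 cases and held 0.0681% and 0.0257% of reads. The highest, *msp-64*, had 3392 and 903 reads. These genes are close copies, and the reads of single members are uncertain.

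Of the reproductive and excretory soma, 19 of 21 genes of the somatic gonad, 40 of 41 of the vulva and 14 of 14 of the excretory system were members. *mig-6*, a papilin of the extracellular matrix, led the gonad list at 175 and 180 CPM/kb, followed by *fln-1*, filamin, at 99.4 and 94.2. *ehn-3* and *hnd-1*, which act in the early gonad primordium, were at 0 in both libraries, and *lag-2*, the Notch ligand of the distal tip cell, had 60 and 51 reads. The vulva list was led by the Ras pathway, with *let-60* (Ras) at 88.1 and 86 CPM/kb, *lin-45* (Raf) at 68.5 and 62.6, and the MAP kinase phosphatase gene *lip-1* at 65.2 and 55. These genes act in many tissues, so their level is not that of the vulva alone. *exc-9*, a LIM protein of the excretory canal, was at 46.6 and 42 CPM/kb, and the homeobox gene *ceh-6* was lowest of its list with 37 and 27 reads.

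Neuronal genes were detected broadly but low. All 35 pan-neuronal genes were members, at a list median of 8.73 and 8.69 CPM/kb. Synaptobrevin, *snb-1*, had 473 and 419 CPM/kb, *apl-1*, the homolog of the amyloid precursor protein and also active outside neurons, had 194 and 201, and *sbt-1*, a chaperone of peptide processing, was at 81.6 and 80.5 CPM. *rgef-1* was lowest with 51.8 and 20.9 reads. Of 53 genes that mark transmitter systems or sensory neuron classes, 29 were members, at a median of 2.02 and 1.65 CPM/kb. Among the members of this list were touch neuron genes. *mec-12* (an alpha-tubulin) had 1909 and 1798 reads, *mec-17* (a tubulin acetyltransferase) had 802 and 616, and *mec-7* (a beta-tubulin) had 794 and 767. *daf-11*, a guanylyl cyclase of sensory neurons, was lowest with 36 and 24 reads, and *gcy-7* was at 0 in both. Of 9 glial genes 5 were members, from *ptr-10* at 8.16 and 11.4 CPM/kb to *kcc-3* at 1.2 and 0.97. The 4 coelomocyte genes were all members, with *unc-122* lowest at 91 and 64 reads.

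Gene families ranked from ribosomal proteins at the top to chemoreceptors at the bottom. The 46 member genes of the large ribosomal subunit, of 47 in the table, held 6.89% and 6.93% of reads, and the 31 of the small subunit held 4.79% and 4.89%. Their list medians stood at percentiles 99.4 and 99.5. Even the lowest small subunit gene, *rps-13*, had 407 and 434 CPM/kb. *rpl-24.2*, the lowest of the large subunit family, had 90.5 and 107 CPM/kb against 6270 and 6571 for *rpl-24.1*. Ribosomal proteins of the mitochondrion, with 67 of 69 genes as members, stood lower at percentile 74.4.

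Protein folding and degradation, energy metabolism and acidification also ranked high. The vacuolar ATPase, the proton pump of lysosomes and of the intestinal surface, had all 20 genes as members at percentile 96.2, with *vha-2* at 2184 and 2128 CPM/kb and *vha-7* lowest at 8.63 and 7.53. The nuclear genes of the respiratory chain had 45 of 46 members at percentile 95.1 and held 2.32% and 2.34% of reads. Aspartyl and cysteine proteases stood at 97.7, the CCT chaperonin at 92.4, the proteasome at 90.5 and glycolysis at 87.8. The SDs of these percentiles over the N2 libraries were 0.43 or less, except 1.6 for glycolysis. Mitochondrial DNA itself carries 12 protein-coding genes, all of them members, which held 0.868% and 0.788% of reads. *COX3* had 2012 and 1667 CPM/kb, *COX1* 1724 and 1666, and *CYTB* 1531 and 1470. *ND4L* was lowest at 45.2 and 67.3 CPM/kb, so genes of one small genome differed by more than an order of magnitude.

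Cuticle collagens of the *col* family had 108 of 156 genes as members, 15 at 0 in both libraries, and 4.04% and 2.96% of reads. *col-125*, with 3617 and 2880 CPM/kb, *col-10*, with 2915 and 2347, and *col-160*, with 2448 and 1306, were highest. Histone genes, many of them identical copies, had 35 of 72 members, and 27 were at 0 in both libraries. As uniquely placed reads are rare in such copies, these values are uncertain. Replication-dependent histone RNAs lack a poly(A) tail, and the list stood at percentile 93.6 in these libraries made without poly(A) selection. Of the genes listed for writing, reading or erasing trimethylation of histone H3 lysine 4, together with partners of these factors, 18 of 19 were members at percentile 60.9. *dpy-30*, a shared subunit of the methyltransferase complexes, led with 130 and 132 CPM/kb. *utx-1*, which is not an eraser of this mark, was lowest with 2.5 and 3.14 CPM/kb.

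Families that respond to the environment or act in single cells differed in how many of their genes passed the limit. Of 1303 serpentine chemoreceptor genes 14 were members, 841 were at 0 in both libraries, and the members held 0.00369% and 0.00397% of reads. The highest, *srv-1*, had 155 and 110 reads. Nuclear hormone receptors had 142 of 269 members at percentile 19.9, F-box genes 65 of 322 at 14.1, cytochrome P450 genes 40 of 74 at 23.2, and C-type lectins 81 of 240 at 36.2. The highest nuclear hormone receptor gene was *nhr-114* with 192 and 183 CPM/kb, the highest F-box gene *fbxa-72* with 170 and 151, and the highest C-type lectin gene *clec-63* with 841 and 755. FMRFamide-like peptide genes, by contrast, were members in 29 of 31 cases at percentile 53.5, led by *flp-10* with 117 and 110 CPM/kb. Of 38 insulin-like peptide genes 14 were members, led by *ins-27* with 301 and 339 CPM/kb.

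**Figure D3:**
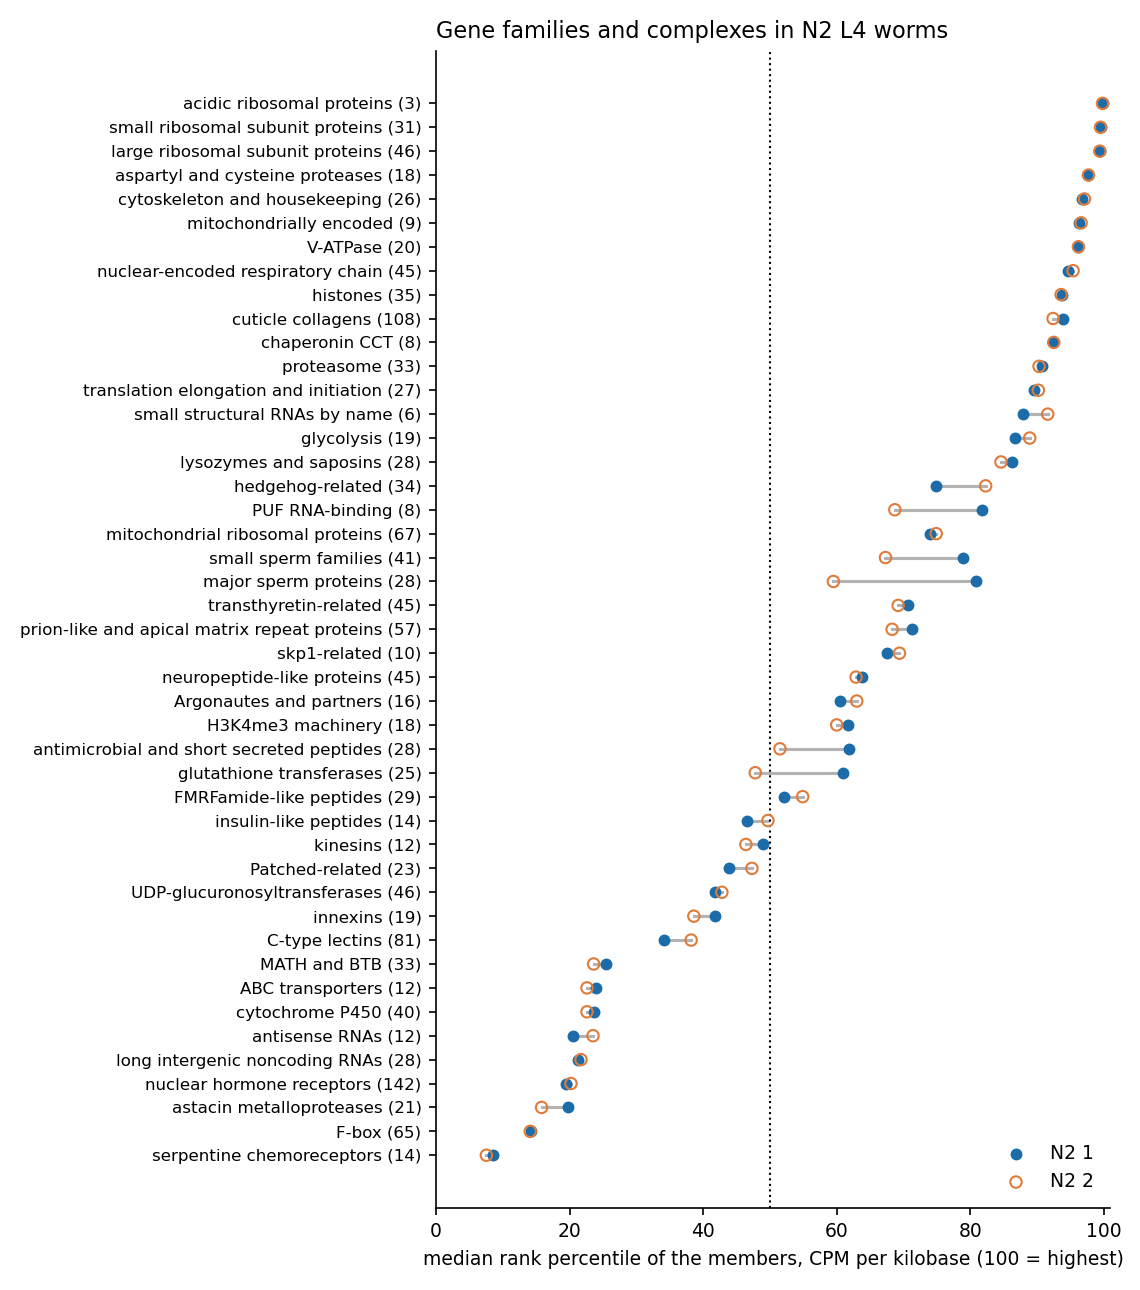
Median rank percentile (x axis, 100 is the highest CPM/kb among members) of gene families and complexes in N2 library 1 (filled) and N2 library 2 (open), joined by a grey line, with the number of members in parentheses. Ribosomal proteins lie at 99.4 or higher and chemoreceptors at 8.57 and 7.53, and the widest gap between the libraries is that of the major sperm proteins, at 80.8 and 59.5.

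By chromosome, coding genes were members in 75.5% of cases on III and 71.5% on I but in 44.7% on V, where many of the chemoreceptor genes lie. On the X chromosome 1685 of 2662 coding genes (63.3%) were members, close to the 10175 of 16958 (60%) on the autosomes. X-linked members had lower levels, with a median of 7.71 and 8.08 CPM/kb against 11.1 and 10.6 on the autosomes, and the X median was the lower one in each of the 8 libraries. The lists behaved differently in this respect. No germ line or sperm member was X-linked (0 of 40 and 0 of 33), and 2 of 31 oocyte genes were, whereas 5 of 6 vitellogenin genes (83.3%), 28.9% of body wall muscle genes and 25% of intestine genes were.

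Members just inside the 20-read limit by their lower library were *best-20* with 93.6 and 20 reads, *F13E9.5* with 87 and 20, and *snf-2* with 72 and 20. Just outside were *dhhc-12* with 40 and 19.9998 estimated reads, *T04F3.3* with 45 and 19.9998, and *clc-7* with 29 and 19.9995. These values are estimates of a program that divides reads among overlapping transcripts, so the side of the limit on which such genes fell was decided by fractions of a read. Another 1298 genes passed the limit in one N2 library only.

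Agreement between the N2 libraries was close for most members. The CPM of 11620 members (94.1%) lay within 2-fold of each other, the median log2 ratio of library 1 to library 2 was 0.01, and the median size of the ratio was 0.41 in the lowest decile of members by CPM/kb and 0.14 in the highest. Of the others, 557 were over 2-fold higher in library 1 and 169 in library 2. The genes over 2-fold made up 11% of the lowest decile, 3.27% of the seventh and 4.24% of the highest. All 28 major sperm protein members were higher in library 1 (median log2 ratio 1.43), as were 6 of 6 vitellogenins (1.28), 37 of 41 members of other small sperm families (0.98) and 30 of 31 oocyte and eggshell genes (0.87). The epidermis list had a median of -0.31 with 8 of 52 higher in library 1, but the *col* family of cuticle collagens had a median of 0.36 with 77 of 108 higher in library 1, and 35 of these 108 differed by over 2-fold. Body wall muscle (-0.08), intestine (-0.05), pan-neuronal (-0.06) and large ribosomal subunit genes (-0.08) were nearly level. Between 2 libraries of 1 genotype no test was possible.

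Among members with 100 or more reads in both libraries, the largest ratio was that of *Y57G11B.5*, with 855 and 118 reads (log2 ratio 2.38), followed by *D1086.6* with 1997 and 300 (2.26) and *ZK813.1* with 779 and 126. In the opposite direction, *gcy-12*, a guanylyl cyclase, had 286 and 842 reads (-2.03), *srpr-1.2* had 1039 and 2474 (-1.73) and *nas-15*, an astacin protease, had 308 and 605 (-1.45). The N2 mean of these genes has little meaning, since the libraries differ by over 2-fold.

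**Figure D4:**
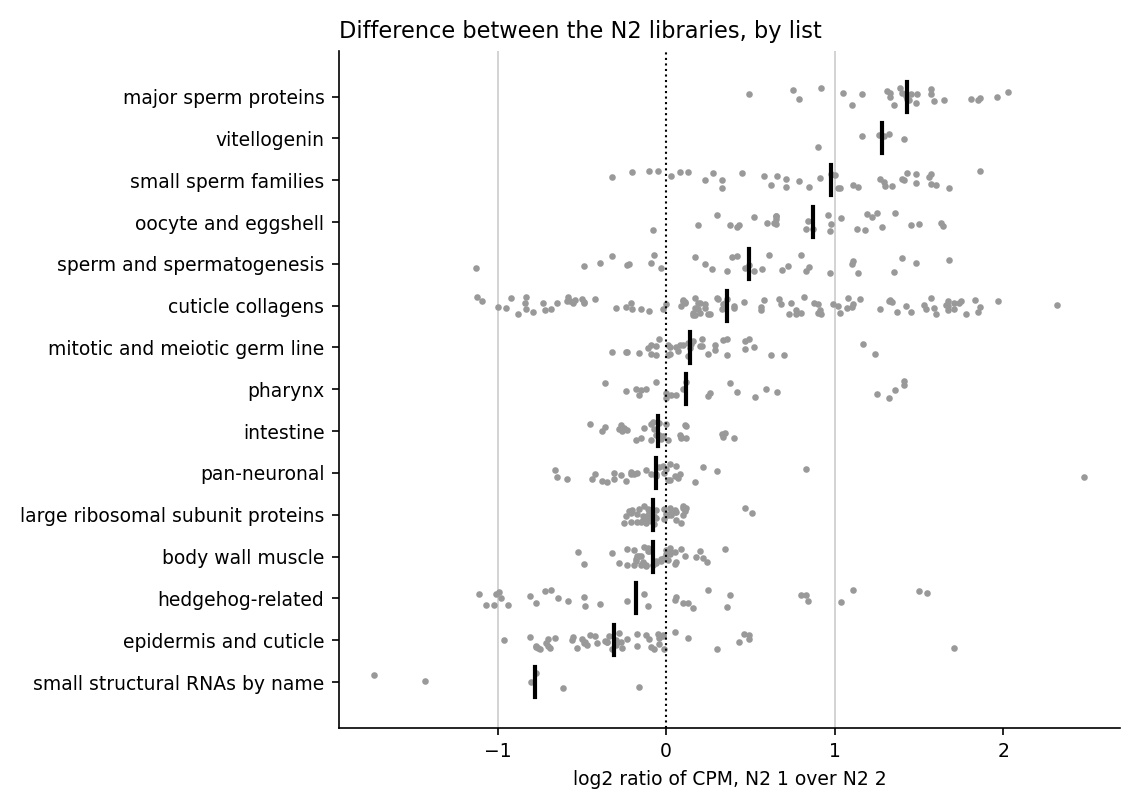
Log2 ratio of CPM in N2 library 1 to N2 library 2 (x axis, 0 is equal) for the members of selected lists (grey points) with the list median. Major sperm proteins, vitellogenins and oocyte genes lie to the right, with medians of 1.43, 1.28 and 0.87, and the epidermis list lies to the left at -0.31.

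The detected genes were largely shared with the mutants. The same limit was met by 11649 genes of *set-9*, of which 11408 were N2 members (92.4% of the N2 and 97.9% of the *set-9* genes). For *set-26* it was met by 12488 genes with 11882 shared (96.2% and 95.1%), and for the double mutant by 12918 with 11948 shared (96.8% and 92.5%). The share of body wall muscle genes varied little over the libraries, that of the vitellogenins much more. Body wall muscle genes held 5.79% and 6.01% of N2 reads, 6.02% and 6.38% of *set-9* reads, 6.1% and 6.15% of *set-26* reads, and 5.7% and 5.59% of double mutant reads. Vitellogenins held 1.35% and 0.549% of N2 reads, 0.525% and 0.18% of *set-9* reads, 0.116% and 0.0313% of *set-26* reads, and 1% and 0.66% of double mutant reads. In each genotype the share was higher in library 1, and the N2 range overlapped that of the double mutant. The epidermis list held 2.86% and 3.67% in N2 and 3.8% and 3.55% in the double mutant, but in the single mutants less than in N2, 1.71% and 1.75% of *set-9* reads against 2.27% and 1.85% of *set-26* reads.

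**Figure D5:**
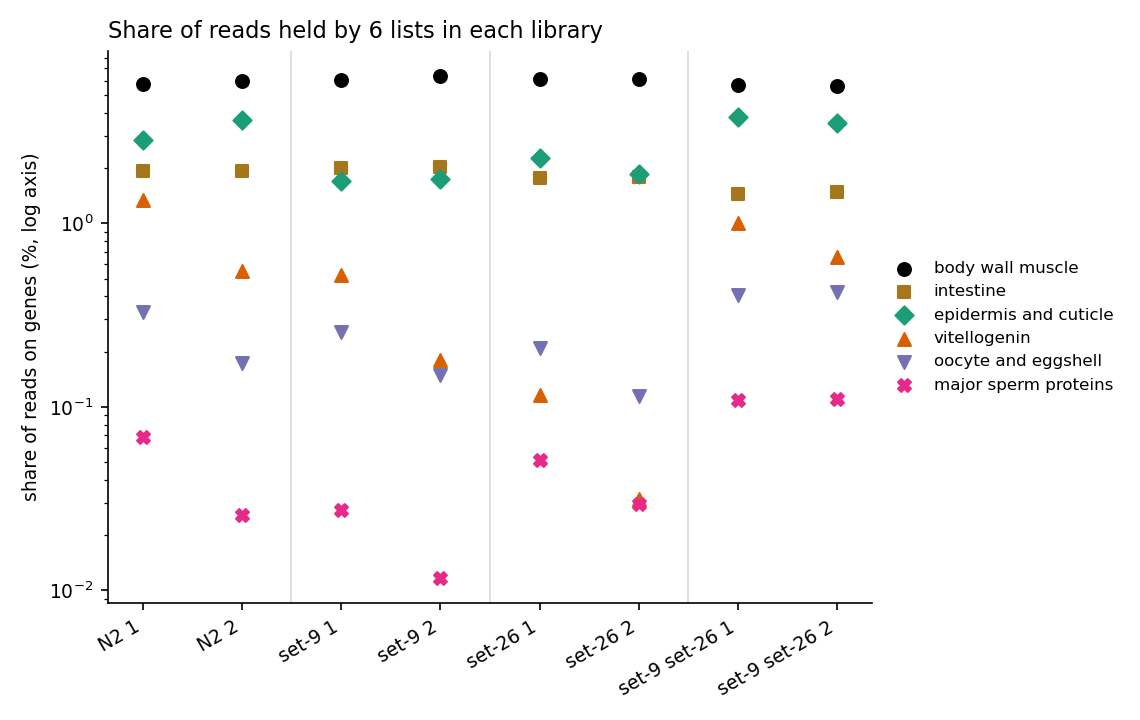
Share of reads on genes (y axis, percent, log axis) held by 6 lists in each of the 8 libraries (x axis), with the genotypes separated by grey lines. Body wall muscle stays between 5.59% and 6.38%, and vitellogenins range from 0.0313% in a *set-26* library to 1.35% in an N2 library.

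Differences of each mutant from N2 were then tested with edgeR (quasi-likelihood test) over 14667 genes in all 8 libraries, with p-values adjusted by Benjamini and Hochberg at a false discovery rate of 5%. The 3 comparisons share the N2 libraries. As membership requires reads in N2, genes that appear only in a mutant are left out, so the counts of members describe and do not test a direction. In *set-9*, 38 members were lower and 29 higher, while 0.266% and 0.198% of all tested genes were called in these directions. In *set-26*, 208 members were lower and 130 higher, against 1.42% and 0.975% of all tested genes. With upper quartile scaling the *set-26* split was 148 lower and 143 higher. In the double mutant, 866 members were lower and 502 higher, against 5.91% and 4.42% of all tested genes. As shares of the members the double mutant calls were 7.01% and 4.07%, the *set-26* calls 1.68% and 1.05%, and the *set-9* calls 0.308% and 0.235%. Calls depended on single libraries: the 1368 calls of the double mutant became 125 without its library 2, 268 without its library 1, 420 without N2 library 2 and 670 without N2 library 1. The 338 calls of *set-26* became 20 without its library 2, 49 without its library 1 and 37 without N2 library 2, and the 67 of *set-9* became 0 to 3 without either of its libraries or N2 library 2, and 111 without N2 library 1.

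In the double mutant, 7.01% of all members were lower and 4.07% higher, and the calls were spread unevenly over the lists, whatever their rank in N2. Of the 20 vacuolar ATPase genes 16 were lower and 0 higher, with a median log2 fold change of -0.72 against -0.04 over all members. Of 45 respiratory chain genes 21 were lower and 1 higher (median -0.49), and of 32 intestine genes 15 were lower and 2 higher (median -0.49). Without the double mutant library 2 each of these 3 lists had 5 members lower, and the medians were -0.74, -0.46 and -0.44. Without one of the other N2 or double mutant libraries the lists had 9 to 11, 6 to 12 and 8 to 9 members lower. Of 35 histone genes 0 were lower and 14 higher (median 0.26), or 8 higher without that library. The 35 pan-neuronal genes had 0 calls. Some other lists that ranked high in N2 had few. In the large ribosomal subunit 1 of 46 genes was lower, in body wall muscle 4 of 45, and in the proteasome 0 of 33. These lists had 0 higher. High-ranking lists with more calls were the proteases and the chaperonin. Of 18 aspartyl and cysteine proteases, some of them also on the intestine list, 10 were lower and 1 higher (median -0.50). Of 8 CCT chaperonin genes 6 were lower and 0 higher (median -0.56). Some lists of lower rank also had many: of 28 antimicrobial and short secreted peptide genes 14 were lower and 4 higher (median -1.05). Of 25 pharynx genes 9 were lower and 0 higher (median -0.41). The intestine list held 1.94% of reads in both N2 libraries against 1.44% and 1.49% in the double mutant. A large part of these shares came from the single gene *asp-1*, at 8722 and 8030 CPM in N2 and 5330 and 5742 in the double mutant.

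Single genes of these lists were read in each library. *asp-1* was at 8722 and 8030 CPM in N2 and at 5330 and 5742 in the double mutant, and it fell by 0.77 on the log2 scale (SE 0.079, adjusted p = 0.00431 by edgeR's quasi-likelihood test). *atp-1*, at 6228 and 6019 CPM in N2 and 3479 and 3596 in the double mutant, fell by 0.96 (SE 0.08, adjusted p = 0.0021, the same test). *cpr-1*, an intestinal cysteine protease at 561 and 656 CPM in N2 and 185 and 208 in the double mutant, fell by 1.8 (SE 0.145, adjusted p = 0.00176, the same test). The histone H4 gene *his-1*, at 27.5 and 26.5 CPM in N2 and 147 and 170 in the double mutant, was higher by 2.39 (SE 0.133, adjusted p = 0.000909, the same test), with its reads shared among copies. The groups of these 4 genes did not overlap. Their changes kept their direction when any single library of N2 or of the double mutant was left out. Some other genes of these lists, such as the vacuolar ATPase gene *vha-2* and the intestine gene *act-5*, were not called in every such fit. In these fits the log2 fold change of *vha-2* was -0.74 to -0.65, and that of *act-5* was -0.82 to -0.56. *act-4*, the gene at rank 2 by CPM, was at 10540 and 10507 CPM in N2 and 11573 and 11238 in the double mutant, a log2 fold change of -0.05 after TMM scaling.

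The lists that differed between the N2 libraries were also read in the mutants. Over all members, 1.68% were lower and 1.05% higher in *set-26*, and 7.01% lower and 4.07% higher in the double mutant. In lists this small, a few called genes lie near these shares, as for the lower genes of the small sperm families and the higher major sperm protein genes below. Of 52 epidermis genes, 12 were lower and 2 higher in *set-26* and 13 lower and 2 higher in the double mutant. In *set-26* the 12 became 11 without N2 library 1, 2 without N2 library 2, 1 without *set-26* library 1 and 0 without *set-26* library 2. In the double mutant the 13 became 9 without N2 library 1, 5 without N2 library 2, 3 without double mutant library 1 and 0 without its library 2. Of 33 genes of the sperm list, 1 was lower and 6 higher in the double mutant, and of 41 members of small sperm families 3 were lower and 6 higher. The 6 higher genes of the sperm list became 3 without N2 library 1, 1 without N2 library 2 or double mutant library 1, and 0 without double mutant library 2. The 6 of the small families became 3 without N2 library 1 and 0 without any other single library. Of 6 vitellogenins, 2 were lower in *set-26*. *vit-1* was at 883 and 475 CPM in N2 and 99.1 and 75.2 in *set-26*, and it fell by 3.07 on the log2 scale (SE 0.336, adjusted p = 0.0108 by edgeR's quasi-likelihood test). *vit-4* was at 405 and 169 CPM in N2 and 15.7 and 3.43 in *set-26*, and it fell by 5.02 (SE 0.932, adjusted p = 0.0397, the same test). Without either one of the *set-26* libraries 0 vitellogenins were called, and without either N2 library 1. *vit-6*, the most abundant of them in N2, was at 5661 and 2312 CPM there and 553 and 136 in *set-26*, with a log2 fold change of -3.65, an SE of 0.782 and an adjusted p of 0.0584 by the same test, so it was not called. Of 28 major sperm protein members 0 were lower and 2 were higher in the double mutant, with 5 higher without N2 library 1, 1 without N2 library 2 and 0 without either double mutant library. *meg-2*, the lowest oocyte gene of N2 with 54.7 and 32 reads, had 459 and 487 in the double mutant (log2 fold change 3.61, SE 0.308, adjusted p = 0.00229 by edgeR's quasi-likelihood test), and it was called without each single library.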

How the data were processed

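Total RNA of whole L4 worms was extracted with Trizol, and libraries were made with the Ovation Human FFPE RNA-Seq kit (NuGEN) after removal of ribosomal RNA. The authors trimmed reads with cutadapt and FASTX tools, discarded reads that matched tRNA or rRNA with Bowtie2, aligned the rest to WS250 with TopHat2 using annotated junctions only, and estimated read counts per gene with Cufflinks. The deposited values are these estimated counts, neither scaled nor all whole (51.9% of the N2 values above 0 were whole), per the file headers with each library on its own lane of one flow cell. They were rounded to whole numbers for the test.

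Groups came from the sample labels. CPM used the sum over genes, and 93 landmark entries of the table were left out (0.26% and 0.252% of reads). Exon lengths, biotypes and coordinates came from the WBcel235 annotation, in which 589 genes, 103 of them members, were not found and have no length, leaving 12243 members for CPM/kb. The depth makes 3 reads equal to 0.115 and 0.159 CPM in N2, and such floors cover counting error only. The labels do not say that libraries came from separate cultures, so SDs and p-values measure the spread between these libraries, which may be technical.

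Mutants were compared with N2 by edgeR (4.0.16, R 4.3.3) with TMM scaling and a quasi-likelihood test over 4 genotypes, for genes with 20 reads in at least 1 library (common BCV 0.206). Tested on simulated data of 14020 genes for *set-9* against N2, the test recovered 100% of 4-fold and 35% of 2-fold changes, with 3.57% of its calls false. The simulation gave every gene the same spread (the common BCV) and changed only genes with many reads. These rates therefore need not hold for the real libraries. Alternatives were other scalings, filters, lengths and samples, a replicate block and DESeq2 (1.42.0). Tables were handled with Python 3.11.15, pandas 2.3.3 and Biopython 1.88. The genes, members and lists were chosen with earlier results of these data known. Named were the 20 highest genes by CPM and 10 by CPM/kb, in each list the 3 highest and the lowest member and genes at 0, the extremes of the replicate ratio among members with 100 reads in both libraries, genes at the 20-read limit, and the largest changes in mutants, of which those with results repeated elsewhere were left out. Genes outside this rule (*col-19*, *glp-1*, *elt-2*, *myo-2*, *ceh-51*, *lin-28*, *lin-46*, *mec-17*, *atp-1*, *his-1*, *vit-1*, *vit-4*, *tts-1*, *tts-2* and the further single genes of the mutant comparison) were chosen after their values were seen.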

Additional observations from a re-analysis of the deposited data

Results flagged for a closer look

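The count table holds 93 landmark entries beside the rows of genes, each named for a gene and counted separately, which the comparisons did not use. Of these, 56 had more than 3 reads in both N2 libraries, the limit that a count of 0 allows, and this signal outside the gene rows marked them for a closer look. The *unc-60* landmark had 16920 and 11400 reads against 11442 and 9421 on the gene row, and the *unc-54* landmark 15690 and 10040 against 275745 and 212641. The *lin-42* landmark had 8701 and 7807 reads against 10402 and 9779. The median landmark share of a gene's total was 12.6% and the largest 59.7%. Of 59 entries above 0 in both libraries, 37 gave a whole number within 0.01 when added to their gene row, in both libraries.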

How the results depend on the processing

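Under 6 other limits or libraries the number of members ranged from 10404 to 13644 against 12346. The tissue order kept a Spearman's rho of 0.904 (genomic span as length) to 0.996 with the order reported, and the lists above percentile 50 numbered 10, or 12 by CPM, 15 without a filter and 7 by genomic span. By CPM the pan-neuronal list rose from percentile 46.1 to 68.2. The 100 most abundant genes held 28.8% without the most abundant gene in the total, against 29.6%. Within 2-fold between N2 libraries were 96% of genes at 50 reads and 97% at 100 reads, alternatives chosen after seeing the data.

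Members called in *set-9*, *set-26* and the double mutant were 67, 338 and 1368. They became 692, 900 and 2148 without a filter on low counts. DESeq2's Wald test called 475 members in *set-9*, 786 in *set-26*, and a filter of 20 reads in every library called 108 in *set-9*. A fit to the compared libraries alone called 0 members for *set-9* and 14 for *set-26*, while 1149 lower and 606 higher members had an unadjusted p under 0.05 in *set-9* in the fit to all libraries. Leaving out one library at a time gave 0 to 111 for *set-9*, 20 to 231 for *set-26* and 125 to 670 for the double mutant. With the replicate number as a block 193, 697 and 2240 members were called. Same-numbered libraries share only a number (correlation of their deviations 0.205, 0.136 and 0.0579), so this fit is not the paired analysis of a design. The causes of these shifts were not tested, beyond the fewer samples in the fits that leave libraries out.

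With 2 libraries per genotype the precision of each N2 mean is low, and near 20 reads counting error alone is large. Levels of close copies (major sperm proteins, vitellogenins, histones, actins and signal recognition particle RNAs) depend on how shared reads were divided.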
